A study of Mus musculus with 15 samples.

Results

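The H3K9me3-enriched bins described here are windows of 2 kb of the mouse genome in which trimethylated lysine 9 of histone H3 stood well above total histone H3 in embryonic stem cells. They were chosen by 5 chromatin immunoprecipitation (ChIP) libraries of 1000 cells each. A bin entered when its mean H3K9me3 over libraries a, b and c was 3 times or more its mean total H3 (panH3) over libraries a and b, and its mean panH3 was at least 0.1 RPKM (reads per kilobase of sequence and per 1000000 reads). Of 98085 bins sampled along the genome, 91479 reached that panH3 level and 2765 of these were enriched, which is 3.02% of the bins that could qualify. The 6606 bins with less panH3 could not qualify and enter no comparison with all bins below, except in the limma test. Its background is all 93512 bins tested, some of which had less panH3.

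All libraries came from TT2 cells, a wild-type male embryonic stem cell line of C57BL/6 x CBA background from the inner cell mass of the blastocyst, taken without treatment. The study asked how far ChIP sequencing can be scaled down, so each mark was profiled from several cell numbers. H3K9me3 was measured in 1000000, 100000 and 10000 cells (1 library each) and in 1000 cells (3 libraries). H3K27me3 was measured in 100000, 10000 and 1000 cells (1 library each), and panH3 in 1000 cells (2 libraries). Cells were sorted straight into nuclear isolation buffer. An RNA library of 1000 cells and H3K4me3 libraries of 100000, 10000 and 5000 cells (1 library each) were also used. A cell line is a single source of cells, and the labels do not say whether the libraries of 1 group were separate cultures, so spreads between libraries may be technical. In the RNA library, 10 of 10 markers of pluripotent stem cells had 15.0 RPKM or more. Of 8 markers of fibroblast feeder cells, 4 were listed at 0 and the highest, Thy1, had 1.79 RPKM.

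H3K9me3 is the defining mark of constitutive heterochromatin. It is deposited by the Suv39h enzymes over repeats near centromeres and by Setdb1, which zinc finger proteins and Trim28 bring to endogenous retroviruses and to some genes of the germ line, and it is bound by the heterochromatin proteins Cbx1, Cbx3 and Cbx5. H3K27me3 is deposited by Polycomb repressive complex 2, mostly at promoters rich in CG, and total H3 tracks nucleosomes whatever their modification. All 22 genes of a list of writers, readers, erasers and partners of H3K9 methylation had 5.38 RPKM or more in the RNA library, among them Setdb1 at 16.4, Trim28 at 119, Cbx1 at 123 and Zfp57, which guards imprinted regions, at 78.4 RPKM.

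Few enriched bins lay at promoters, and the sequences below show how unlike those few were. Of the 19 genes with a start site in or within 1 kb of an enriched bin, 12 were found by symbol among RefSeq's promoters, 8 of them with a single start. For 3 of these 8 the 250 bases before the start lay in the bin almost whole, as judged from the start in the deposited gene table. They are printed 5′ to 3′ on the gene's strand from RefSeq (build GRCm38.p6), with each CG in capitals. Ddx4 encodes an RNA helicase of the germ line (chr13:112652311-112652560, minus strand). Slc39a12 encodes a zinc transporter (chr2:14388148-14388397, plus strand). Speer2 belongs to a multicopy family expressed in spermatogenesis (chr16:69863745-69863994, minus strand).
Ddx4: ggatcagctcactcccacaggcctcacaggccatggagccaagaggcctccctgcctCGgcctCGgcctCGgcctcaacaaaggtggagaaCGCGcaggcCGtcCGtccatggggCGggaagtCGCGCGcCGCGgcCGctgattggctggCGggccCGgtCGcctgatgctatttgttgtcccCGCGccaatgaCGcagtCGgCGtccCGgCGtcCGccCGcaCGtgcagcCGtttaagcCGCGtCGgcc
Slc39a12: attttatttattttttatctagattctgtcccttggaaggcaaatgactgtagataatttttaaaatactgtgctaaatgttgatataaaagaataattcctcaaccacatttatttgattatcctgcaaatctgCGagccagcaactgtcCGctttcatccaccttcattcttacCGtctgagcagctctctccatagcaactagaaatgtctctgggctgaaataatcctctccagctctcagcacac
Speer2: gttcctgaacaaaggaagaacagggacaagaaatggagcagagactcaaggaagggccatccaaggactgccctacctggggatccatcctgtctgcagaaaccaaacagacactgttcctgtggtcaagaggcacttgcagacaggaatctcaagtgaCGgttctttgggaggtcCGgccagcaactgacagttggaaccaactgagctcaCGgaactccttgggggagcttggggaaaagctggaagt
The Ddx4 sequence holds 31 CG, a number reached by 5.19% of the 32851 RefSeq promoters of this length. Slc39a12 and Speer2 hold 3 CG each, which 71.0% of promoters reach, and the median promoter holds 6. Among the single-start genes whose promoter lies mostly outside the bin, Eif5a2 has 27 CG and Senp6 has 25, whereas Lair1 has 2 and Olfr743 and Mrgprb8 have 1 each. The Ddx4 bin carried H3K27me3 as well as H3K9me3, and the Slc39a12 and Speer2 bins carried H3K9me3 with little H3K27me3 (values below). Beside the other CG-rich promoters, H3K27me3 in 100000, 10000 and 1000 cells was 4.3, 3.14 and 1.57 RPKM in the Eif5a2 bin. In the Senp6 bin it was only 0.05, 0.29 and 0.38 RPKM. A link between CG and H3K27me3 cannot be read from so few bins and was not tested.

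Library depth, recovered from the smallest steps between RPKM values, was 45.52 M reads (M, 1000000) for H3K9me3 of 1000000 cells, 20.27 M for 100000 and 13.4 M for 10000 cells. It was 17.55, 34.93 and 27.16 M for H3K9me3 libraries a, b and c, 13.03 to 19.67 M for H3K27me3 and 42.02 and 42.16 M for panH3. A single read in a bin was therefore worth between 0.011 and 0.0384 RPKM. The table ends at 5 RPKM, the highest value in any library. The libraries fell into 2 sets, most sharply in a small number of bins. In 58 of the 91479 bins, H3K9me3 of 1000000 cells, of 1000 cells b and c, and both panH3 libraries had reads while the other 6 libraries had exactly 0, and the opposite pattern occurred in 0 bins. Among enriched bins the pattern occurred in 2, in the same stretch of chromosome 7 near the pheromone receptor genes Vmn1r62 and Vmn1r63. At chr7:5686001-5688000 H3K9me3 was 1.45 RPKM in 1000000 cells and 1.43 and 1.64 in libraries b and c, but 0 in 100000 cells, 10000 cells and library a, and all 3 H3K27me3 libraries had 0. The other bin, chr7:5764001-5766000, read 1.43, 1.73 and 1.75 RPKM in the same 3 libraries. The split was not limited to bins at 0. In 288 enriched bins (10.4%, background 6.45%) H3K9me3 of 1000000 cells, b and c lay below that of 100000 cells, 10000 cells and a. The reverse held in 114 (4.12%, background 6.59%). The reason was not tested, and the calls without the 1000000-cell library are given with the test below.

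The values that chose the bins are given as a description. In enriched bins the median H3K9me3 was 1.25, 1.23 and 1.22 RPKM in the 1000-cell libraries a, b and c, against 0.37 in each of them over all bins. The mean of these 3 medians was 1.23 ± 0.0153 RPKM (SD, n = 3). Median panH3 was 0.32 and 0.33 RPKM in libraries a and b, against 0.43 in both over all bins. The rule divides by these same panH3 values and so favours low ones, so part of this gap is built in. The ratio of H3K9me3 to panH3 had a median of 3.69 and ran from 3 to 9.36. Each of the libraries a, b and c reached 3 times panH3 by itself in 1827 of the 2765 bins (66.1%, background 2.0%), all of which the rule takes in.

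The share of enriched bins was higher where panH3, the reference of the ratio, was lower, which the rule itself favours. Bins with panH3 between 0.1 and 0.2 RPKM were enriched in 14.7% of cases (562 of 3834), those between 0.4 and 0.5 in 1.53% (469 of 30576), and those at 0.7 or more in 0.714% (33 of 4621). The largest ratio, 9.36, was at chrX:9186001-9188000, 36.5 kb from the predicted gene Gm5132, where H3K9me3 was 1.25, 1.06 and 0.92 RPKM in a, b and c and panH3 was 0.11 and 0.12. The next was 8.20 at chr12:19714001-19716000, with H3K9me3 of 1.14, 0.90 and 0.79 RPKM over panH3 of 0.14 and 0.09, at 1094 kb from the nearest gene. All of the 10 largest ratios rested on mean panH3 of 0.18 RPKM or less. At the threshold the choice was fine. Among the bins at exactly 3, chr12:77850001-77852000 had mean H3K9me3 of 1.23 and panH3 of 0.41 RPKM, chr15:32742001-32744000 had 0.96 and 0.32, and chr10:62572001-62574000 had 0.39 and 0.13. Just outside, chr1:118560001-118562000 had 1.42 and 0.475 RPKM (ratio 2.996), chr2:53226001-53228000 had 1.15 and 0.385 (2.996), and chr12:52416001-52418000 had 0.973 and 0.325 (2.995).

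**Figure D1:**
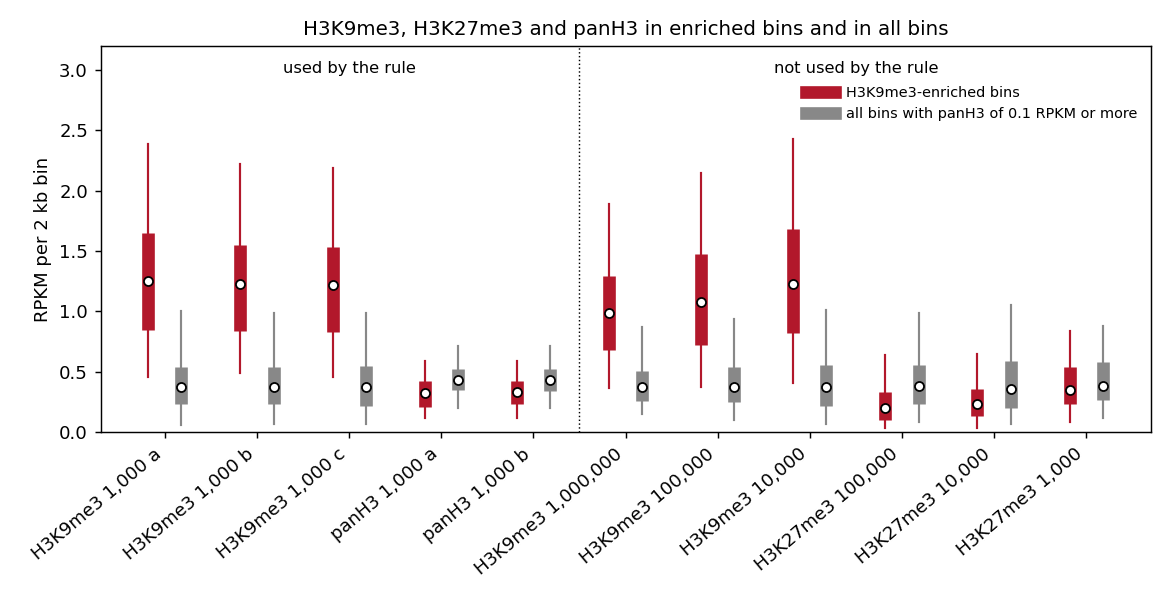
RPKM per 2 kb bin (vertical axis) in 11 ChIP libraries, named by mark and cell number, for the 2765 enriched bins (red) and all 91479 bins with panH3 of 0.1 RPKM or more (grey). White points are medians, thick bars the middle 50% of bins and thin lines the 5th to 95th percentile, and the 3 H3K9me3 libraries of higher cell numbers, which the choice of bins did not use, have medians of 0.99 to 1.23 RPKM in enriched bins against 0.37 in all.

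H3K9me3 at the higher cell numbers had no part in the choice. In enriched bins its median was 0.99 RPKM in 1000000 cells, 1.08 in 100000 cells and 1.23 in 10000 cells, and in each library the median over all bins was 0.37. It exceeded the mean panH3 in all 3 libraries in 2753 of 2765 bins (99.6%, background 24.3%), a comparison with the same panH3 values that chose the bins. The 3-fold mark over panH3 was reached in 1443 bins (52.2%, background 1.73%) in 1000000 cells, in 1786 (64.6%, background 2.39%) in 100000 cells and in 2186 (79.1%, background 3.44%) in 10000 cells. These shares use the same panH3 values as the choice of bins did, so the shares at 3 times each library's own median bin were also taken. They were 40.1% (1109 bins, background 2.21%) in 1000000 cells, 49.8% (1377 bins, background 3.16%) in 100000 cells and 58.3% (1613 bins, background 4.0%) in 10000 cells. By either reference the share was lowest in the library of 1000000 cells and highest in that of 10000 cells. Read depth fell in the same order as cell number, with 1 library each. The 1000000-cell library also fell in another set of libraries than those of 100000 and 10000 cells. Cell number, depth, library and set thus cannot be told apart, and no test was possible.

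Read from the other side, 91.3% of the 1581 bins at 3 times panH3 in 1000000 cells were enriched bins, as were 81.8% of 2183 in 100000 cells and 69.4% of 3151 in 10000 cells. All 3 higher cell numbers reached 3 times panH3 in 1066 enriched bins (38.6%, background 1.19%), and none of them did in 272 (9.84%, background 95.9%). The bins near the threshold made up most of the difference. Of the 1096 bins with a 1000-cell ratio of 3 to 3.5, 23.3% reached 3 times panH3 in 1000000 cells, 40.9% in 100000 cells and 62.3% in 10000 cells. Of the 227 bins with a ratio of 5 or more, 96%, 97.4% and 99.6% did so. The classes and the 3-fold mark both use the panH3 values that chose the bins, so part of this rise is built in. From the lowest class to the highest, median panH3 fell from 0.35 to 0.245 RPKM. Median H3K9me3 rose from 0.90 to 1.09 RPKM in 1000000 cells, from 1.01 to 1.26 in 100000 cells and from 1.08 to 1.42 in 10000 cells.

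**Figure D2:**
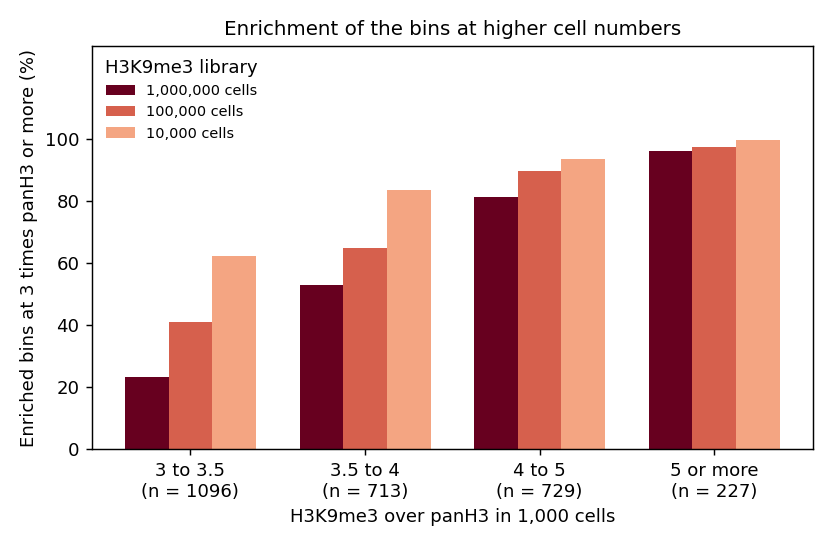
Percentage of enriched bins (vertical axis) with H3K9me3 at 3 times panH3 or more in the libraries of 1000000, 100000 and 10000 cells (dark to light bars), by the H3K9me3 to panH3 ratio in 1000 cells (horizontal axis, with the number of bins). Bars rise from 23.3%, 40.9% and 62.3% in the lowest ratio class to 96%, 97.4% and 99.6% in the highest, and the 10000-cell bar is the tallest in every class. Both axes use the panH3 values that chose the bins, so part of the rise is built in.

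The highest H3K9me3 among enriched bins at the higher cell numbers was at chr9:123842001-123844000, 2.39 kb from a listed copy of Cdkn2d, with 3.92, 4.41 and 4.48 RPKM in 1000000, 100000 and 10000 cells. Its panH3, 0.77 and 0.98 RPKM, was also high, and the gene table lists Cdkn2d at 2 places of chromosome 9, so the position of its reads is uncertain. Near the zinc finger gene Zfp354a, chr11:50960001-50962000 had 2.76, 2.88 and 4.33 RPKM over panH3 of 0.64 and 0.62. A pair of bins near Itm2c, which encodes a membrane protein, stood 4 kb apart on chromosome 1 and read 2.46, 3.85 and 4.55 RPKM (chr1:87776001-87778000) and 2.43, 3.25 and 4.55 RPKM (chr1:87772001-87774000). Inside the noncoding gene AI506816, chr5:23212001-23214000 had 2.82, 3.55 and 4.07 RPKM. In all 4 of these latter bins H3K9me3 was lowest in 1000000 cells and highest in 10000 cells. RPKM was raised on chromosomes 1, 8 and 11 as a whole. Over all bins there, median H3K9me3 in these libraries was 0.45 to 0.54 RPKM, against 0.33 to 0.39 on the other autosomes. The Zfp354a and Itm2c bins lie on such chromosomes, so their rank by RPKM partly follows the chromosome.

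At the other end, chr18:89114001-89116000 near Rttn had 0.26, 0.10 and 0.15 RPKM in 1000000, 100000 and 10000 cells over panH3 of 0.10 and 0.12. The bin chr12:21676001-21678000 had 0.19, 0.22 and 0.15 RPKM over panH3 of 0.08 and 0.13. The 5 lowest bins all had mean panH3 within 0.02 RPKM of the 0.1 floor, where a few reads decide the ratio.

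H3K27me3 in enriched bins had a lower median RPKM than in all bins at each cell number. Its median was 0.20 RPKM in 100000 cells, 0.23 in 10000 cells and 0.35 in 1000 cells, against 0.38, 0.36 and 0.38 over all bins. The gap to all bins was large in the 100000- and 10000-cell libraries and small in the 1000-cell library, and with 1 library per cell number that difference has no replicate check. H3K27me3 was at or below panH3 in 77.1% of enriched bins in 100000 cells (background 57.3%), in 73.0% in 10000 cells (background 57.8%) and in 38.3% in 1000 cells (background 55.1%). The median ratio of H3K27me3 to panH3 was 0.621, 0.712 and 1.15 in that order, against 0.904, 0.889 and 0.944 over all bins. H3K27me3 reached 3 times panH3 in 31 bins (1.12%, background 1.74%) in 100000 cells, in 29 (1.05%, background 2.05%) in 10000 cells and in 26 (0.94%, background 0.740%) in 1000 cells. All these shares and ratios use the panH3 values that chose the bins, which were lower in enriched bins than in all bins. They are a description, and the higher ratio in 1000 cells does not mean more H3K27me3. The shares in 100000 and 10000 cells were below the background and that in 1000 cells was near it.

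H3K9me3 of 1000000, 100000 and 10000 cells was then compared with H3K27me3 of 100000, 10000 and 1000 cells, 6 libraries that the choice of bins did not use, by limma on log2(RPKM + 0.1) with the cell number as a covariate and adjustment over all 93512 bins tested. Of the 2765 enriched bins, 2567 (92.8%, background 10.1%) were higher in H3K9me3, 4 (0.145%, background 10.1%) were lower and 194 (7.02%) were not called. The median log2 difference was 1.91 in enriched bins and -0.04 in the 91479 bins that could qualify. Every H3K9me3 library stood above every H3K27me3 library in 2621 bins (94.8%, background 15.6%), and the reverse held in 5 (background 17.6%). These last 2 backgrounds are also over the 91479 bins. The libraries of a mark differ in cell number and serve as its replicates here, so the test measures spread across cell numbers. Leaving out any of the 6 libraries gave between 2209 and 2618 bins higher and between 2 and 5 lower, and without the 1000000-cell library there were 2546 and 4. Over all bins tested, the same fits called between 6.48% and 12.2% higher and between 5.41% and 12.2% lower.

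The largest positive difference was at chr10:7234001-7236000, 73.6 kb from Lrp11, where H3K9me3 was 1.71, 2.84 and 2.46 RPKM and H3K27me3 was 0, 0.10 and 0.04 (log2 difference 4.33 ± 0.31 SE, adjusted p = 1.24e-12). Next came a bin holding a listed start site of Ppm1b, which encodes a protein phosphatase, at chr17:85372001-85374000. H3K9me3 there was 1.55, 1.95 and 2.69 RPKM and H3K27me3 was 0.03, 0.03 and 0.46 (4.04 ± 0.33 SE, adjusted p = 1.21e-11). In both bins all H3K9me3 values lay far above all H3K27me3 values. Inside A530053G22Rik the difference was 3.88, inside 0610010B08Rik, which the gene table lists at 4 places, it was 3.82, and near the bitter taste receptor gene Tas2r130 it was 3.77.

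**Figure D3:**
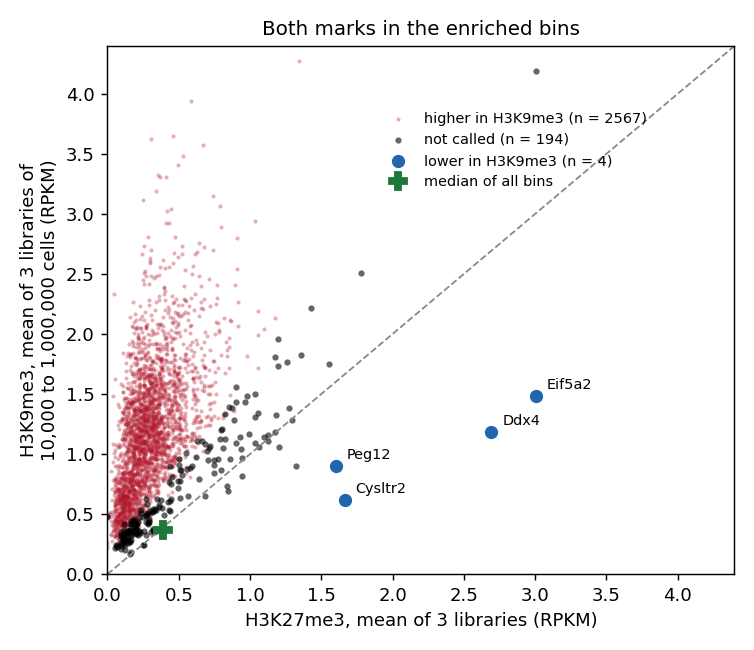
Mean H3K9me3 over the libraries of 1000000, 100000 and 10000 cells (vertical axis, RPKM) against mean H3K27me3 over those of 100000, 10000 and 1000 cells (horizontal axis, RPKM) in each enriched bin, coloured by the limma call, with the line of equality dashed and the median of all bins as a green cross. Nearly all points lie above the line, and the 4 bins called lower in H3K9me3, labelled by the nearest gene, lie below it.

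By the rule that chose them, the 4 bins that limma called lower in H3K9me3 than in H3K27me3 had H3K9me3 above panH3 in 1000 cells. At the Ddx4 start site (chr13:113442001-113444000), whose CG-rich promoter is printed above, H3K9me3 was 1.19, 1.38 and 0.97 RPKM in 1000000, 100000 and 10000 cells and 0.85, 1.26 and 1.31 in 1000 cells a, b and c. H3K27me3 was 3.0, 3.2 and 1.88 RPKM in 100000, 10000 and 1000 cells and panH3 was 0.46 and 0.28. The groups did not overlap, and the log2 difference was -1.33 ± 0.28 SE (adjusted p = 0.00033). Without the 10000-cell H3K9me3 library its adjusted p was 0.0553. Ddx4 RNA was 3.73 RPKM.

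Beside Eif5a2, which encodes a translation factor, chr3:28678001-28680000 ends 233 bases before the start site. H3K9me3 was 1.26, 1.73 and 1.46 RPKM at the higher cell numbers and 1.25, 1.43 and 1.45 in 1000 cells. H3K27me3 was 4.3, 3.14 and 1.57 RPKM, falling with cell number, so that the lowest H3K27me3 value lay within the range of H3K9me3 (log2 difference -1.17 ± 0.30 SE, adjusted p = 0.00306). This call was lost without the 100000-cell H3K27me3 library (adjusted p = 0.265) and with no filter on empty bins (0.119). At chr14:73484001-73486000, 35.1 kb from the leukotriene receptor gene Cysltr2, H3K9me3 was 0.62, 0.64 and 0.60 RPKM and H3K27me3 was 2.08, 1.57 and 1.34, with no overlap (-1.43 ± 0.27 SE, adjusted p = 0.000107). At chr7:69616001-69618000, 6.61 kb from the imprinted gene Peg12, H3K9me3 was 0.90, 0.94 and 0.86 RPKM and H3K27me3 was 1.75, 1.67 and 1.38, with no overlap (-0.85 ± 0.27 SE, adjusted p = 0.0197). Leaving out either the 100000- or the 10000-cell H3K9me3 library, or the 100000-cell H3K27me3 library, raised its adjusted p to between 0.0703 and 0.173, and so did a fit with no robust step and no trend (0.0654).

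The bin with the highest mean H3K27me3 was not among these 4. At the start of the predicted gene Gm13034 (chr4:146034001-146036000), H3K9me3 was 3.58, 4.59 and 4.40 RPKM and H3K27me3 was 3.25, 3.2 and 2.57, and panH3 was 0.88 and 0.91. The marks did not differ by the test (log2 difference 0.46 ± 0.27 SE, adjusted p = 0.268). All libraries were high in this bin, panH3 included. In the bin next to the Peg12 one, chr7:69618001-69620000, H3K9me3 was 2.57, 2.49 and 2.46 RPKM and H3K27me3 was 1.86, 1.90 and 1.57, over panH3 of 0.48 and 0.36, and the difference was not called either (adjusted p = 0.331).

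Enriched bins were mostly outside genes. Of the 2765, 380 (13.7%) touched the span of a transcript in the deposited gene table, against 38.7% of all bins, and 18 (0.651%) lay within 1 kb of a start site, against 3.34%. The median distance to the nearest gene was 66.7 kb, against 12.9 kb for all bins. More than 500 kb separated 12.2% of enriched bins and 8.58% of all bins from any gene. Where a transcript was touched, the highest RNA level among those touched had a median of 0.945 RPKM, against 2.35 over all bins that touched a transcript. Median H3K27me3 in 100000 cells was 0.20 RPKM both in enriched bins touching a gene and in those 100 to 500 kb away.

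The 380 bins touched 326 genes, and 45 of these were touched by 2 or more. These were long genes, with a median length of 152 kb, against 36.4 kb for the 11153 genes touched by any bin. A long gene can be touched by more bins, so counts are given with the bins available. Sntg1, which encodes a syntrophin scaffold protein, held 5 enriched bins of 30, with mean H3K9me3 of 1.66, 1.59 and 1.78 RPKM at the higher cell numbers and RNA of 9.92 RPKM. The predicted gene Gm2012 on the X held 5 of 16, with 0.40, 0.41 and 0.58 RPKM over a mean panH3 of 0.133 and RNA of 0.03 RPKM. Magi2, a synaptic scaffold gene, held 4 of 46 and the protocadherin alpha and gamma span listed as Pcdha4-g, which makes neuronal adhesion proteins, held 4 of 41.

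Shorter genes with several enriched bins included Cep57l1 (3 of 7 bins, 90.8 kb, RNA 28.0 RPKM), Dnajc1 (3 of 9, RNA 8.36), Stau2, which encodes an RNA-binding protein (3 of 12, RNA 15.7), and Gucy1a2, a subunit of soluble guanylate cyclase (3 of 11, RNA 4.13). Mean H3K9me3 in the Stau2 bins was 1.64, 1.85 and 2.23 RPKM at the higher cell numbers, and in the Cep57l1 bins 1.4, 1.56 and 1.64. Stau2 and Sntg1 lie on chromosome 1, where RPKM was raised as a whole. All 3 bins of Stau2 and all 3 of Cep57l1 were called higher in H3K9me3 than in H3K27me3. So were 92.8% of all enriched bins (background 10.1%), so this shows nothing particular to these genes. These genes thus had RNA above 1 RPKM with enriched bins in their span. Of the 326 genes, 51.8% had RNA under 1 RPKM, against 40% of the genes touched by any bin.

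Of the 18 bins at start sites, 7 belonged to a gene with RNA of 1 RPKM or more. The Orc2 bin (a subunit of the origin recognition complex, chr1:58562001-58564000) had H3K9me3 of 2.09, 2.81 and 3.10 RPKM and H3K27me3 of 0.15, 0.16 and 0.42. It stopped short of the start site by 237 bases, the transcript starting there was listed with 19.3 RPKM of RNA, and the H3K4me3 window at the start held 9.34 RPKM in 100000 cells. Orc2 has 2 starts in the gene table, so this RNA cannot be given to that start alone. The Senp6 bin (a SUMO protease, chr9:79912001-79914000) had H3K9me3 of 1.2, 1.68 and 1.53 RPKM and H3K27me3 of 0.05, 0.29 and 0.38. Senp6 RNA was 15.7 RPKM and H3K4me3 at its start, 713 bases past the bin, was 8.19 RPKM. H3K4me3 marks active and poised promoters, and in 100000 cells it was 2.83 RPKM at Eif5a2 and 1.32 at Ddx4. In 10000 cells it was 41.25 RPKM at Orc2, 33.75 at Senp6, 12.19 at Eif5a2 and 3.75 at Ddx4. In 5000 cells it was 17.77, 17.23, 4.85 and 1.62 RPKM in the same order. The Ppm1b start within the bin had no H3K4me3 window, and Ppm1b has 3 starts in the gene table, so its RNA of 70.8 RPKM cannot be given to that start.

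At 11 start-site bins RNA was under 1 RPKM. The Slc39a12 bin (chr2:14308001-14310000) had H3K9me3 of 1.43, 1.68 and 1.83 RPKM, H3K27me3 of 0.33, 0.23 and 0.54, and RNA listed at 0. The Speer2 bin (chr16:69864001-69866000) had H3K9me3 of 1.77, 1.23 and 0.86 RPKM and H3K27me3 of 0.28, 0.20 and 0.31, also with RNA at 0. Bins at the immune receptor gene Lair1, the defensin gene Defb35, the olfactory receptor gene Olfr743 and the itch receptor relative Mrgprb8 had H3K4me3 of 0.12 to 0.30 RPKM at the start in 100000 cells. At these starts it was 0 in 10000 cells and 1.08, 1.62, 0.54 and 0 RPKM in 5000 cells, in the order named. H3K9me3 in 1000000 cells was 0.92, 1.78, 0.43 and 0.77 RPKM in these 4 bins in that order. Of the other start-site genes, Dmrtc1a has 3 listed starts, and the Snord116 small nucleolar RNAs are listed at 10 places, so the position of their reads is uncertain. Over all enriched bins, 39 H3K4me3 windows fell within a bin, in 21 bins. Their median was 0.48 RPKM in 100000 cells, against 1.08 over the 7920 windows in all bins, and 15.4% of them reached 2 RPKM, against 38.5%. In 10000 and 5000 cells their medians were 0 and 0 RPKM, against 1.88 and 1.62.

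The share of enriched bins differed between the gene families nearest to them. Among all bins with a gene within 100 kb, 2.44% were enriched (1584 of 65039). This share was 1.07% in bins touching a transcript, 2.79% in others within 10 kb and 4.58% at 10 to 100 kb. Families differ in how many bins touch a transcript, with 130 of 1051 beside olfactory receptor genes and 165 of 236 beside protocadherin genes. The 2.44% is therefore not a like-for-like reference for each family. Beside the major urinary protein genes, which encode pheromone carriers, 8 of 43 bins were enriched (18.6%), beside cytochrome P450 genes, which encode oxidases of drugs and steroids, 30 of 260 (11.5%), beside vomeronasal receptor genes 64 of 643 (9.95%) and beside olfactory receptor genes 77 of 1051 (7.33%). The share was 4.89% beside zinc finger genes (47 of 961), 8.45% beside serpin genes, which encode protease inhibitors (12 of 142), 4.66% beside protocadherin genes (11 of 236) and 2.40% beside keratin genes (3 of 125). Beside predicted genes named Gm with a number, which are no family, it was 7.15% (127 of 1776), close to the share beside olfactory receptor genes. Beside the Rhox genes, homeobox genes of the X expressed in reproductive tissue, 0 of 20 bins were enriched. Bins beside 1 cluster are neighbours and not independent, no test was made, and reads from near-identical copies may be split or shared.

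Within these families few enriched bins lay in a gene. Near olfactory receptor genes 1 of 77 enriched bins touched a transcript, against 130 of all 1051 bins there, and near vomeronasal receptor genes 5 of 64, against 153 of 643. In the Cyp3a cluster, 3 bins nearest Cyp3a41a and Cyp3a41b averaged 1.26, 1.27 and 1.62 RPKM of H3K9me3 at the higher cell numbers and 0.22, 0.22 and 0.357 of H3K27me3. Near Vmn2r96 3 bins averaged 1.83, 1.81 and 1.86 RPKM of H3K9me3, and near Olfr835 3 bins averaged 1.37, 1.5 and 1.82. In the Ugt1a cluster, whose genes glucuronidate bilirubin and drugs, 1 bin had 2.81, 2.59 and 3.36 RPKM. This cluster lies on chromosome 1, where RPKM was raised as a whole. Limma called 76 of the 77 bins near olfactory receptor genes, 61 of 64 near vomeronasal receptor genes, 30 of 30 near cytochrome P450 genes and 42 of 47 near zinc finger genes higher in H3K9me3 than in H3K27me3. Over all enriched bins the share was 92.8% and over all bins tested 10.1%, so these counts show nothing particular to the families.

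Enriched bins were spread over all chromosomes but unevenly. On the Y they were 20 of 65 bins (30.8%), on the X 259 of 5267 (4.92%) and on the autosomes 2486 of 86147 (2.89%). Among autosomes the share ran from 4.05% on chromosome 12 to 1.75% on chromosome 11. Median panH3 over all bins was 0.205 RPKM on the X and 0.17 on the Y of these male cells, against 0.405 to 0.435 on 16 autosomes and 0.61 to 0.635 on chromosomes 1, 8 and 11. Median H3K9me3 of 1000 cells was likewise raised on those 3, with 0.46 to 0.57 RPKM over libraries a, b and c, and was 0.20 on the X. On the Y it was 0.39 to 0.40 RPKM. The Y was thus the only chromosome whose median bin held over 2 times as much H3K9me3 as panH3.

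Along a chromosome, enriched bins were denser near the centromeric end, where the numbering of mouse chromosomes starts. In the first 20 Mb of the autosomes and the X they made up 696 of 11964 bins (5.82%), and beyond 20 Mb 2049 of 79450 (2.58%). The share was higher in the first 20 Mb on 20 of 20 chromosomes. It ranged there from 3.07% on chromosome 2 to 10.8% on chromosome 9, where it was 1.73% in the rest. Bins starting within 4 Mb of the end had the highest share, 10.5% (69 of 655), followed by 5.77% between 4 and 10 Mb, 5.41% between 10 and 20 Mb and 4.0% between 20 and 30 Mb. From 75 Mb on it stayed between 2.09% and 2.21%. The share of bins touching a gene was 40.9% in the first 4 Mb and 32.2% between 10 and 20 Mb, against 38.7% over all bins.

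**Figure D4:**
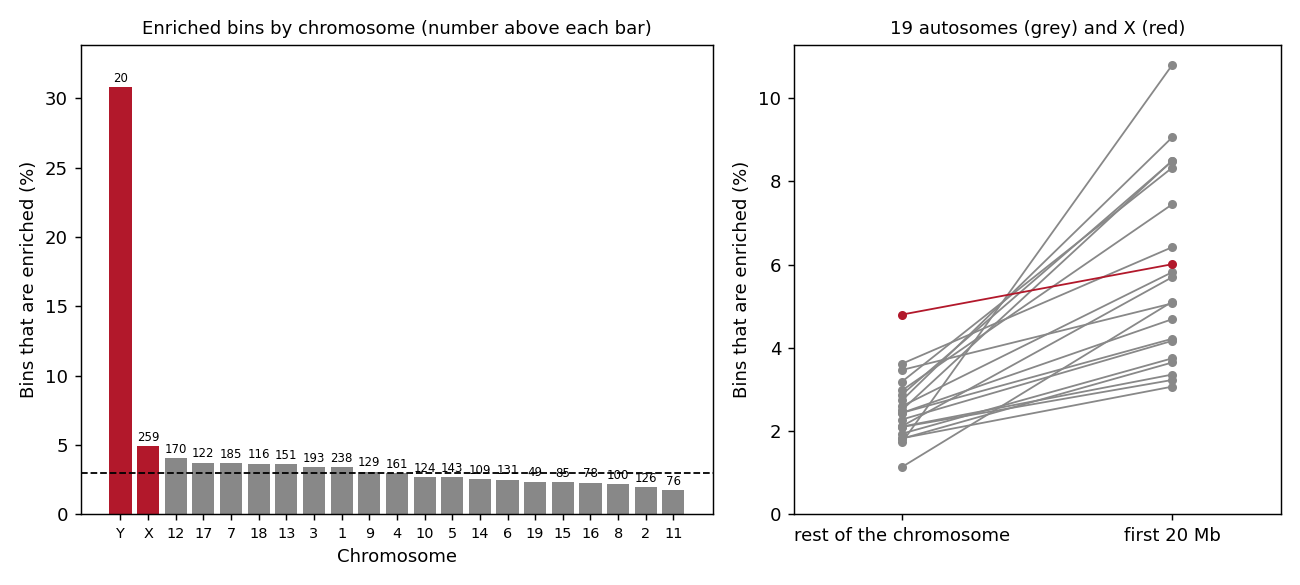
Percentage of bins that are enriched on each chromosome (left, number of enriched bins above each bar, dashed line at 3.02%) and, for the 19 autosomes and the X, in the first 20 Mb against the rest of the chromosome (right, 1 line per chromosome). The Y stands apart at 30.8%, and all 20 lines rise towards the first 20 Mb.

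Enriched bins lay near each other. Within 1 Mb of an enriched bin there was another in 88.0% of cases, against 74.0% for the other bins, and the median number of others was 3 against 1. Within 100 kb the figures were 40.9% and 15.8%, and within 20 kb 18.4% and 3.45%. The bins are a sample of 7.39% of all positions, so most neighbours were not observed. Taking only bins present in the table, a bin 2 kb from an enriched bin was itself enriched in 38.4% of cases (144 of 375), a bin 4 kb away in 24.3%, and bins 6 to 10 kb away in 13.9%. The share was 11.6% at 12 to 20 kb, between 7.17% and 7.39% from there to 200 kb, 4.88% in the class ending at 1000 kb and 3.82% in that ending at 5000 kb, above the 3.02% of all bins. Most of the fall thus lay within the first 20 kb.

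Bins around enriched bins that were not themselves enriched showed the same short range in libraries that the choice did not use. At 2 kb their median H3K9me3 was 0.68, 0.67 and 0.75 RPKM in 1000000, 100000 and 10000 cells, between the 0.99, 1.08 and 1.23 of enriched bins and the 0.37 of all bins. At 4 kb it was 0.54, 0.54 and 0.60 RPKM and at 12 to 20 kb 0.43, 0.44 and 0.45. H3K27me3 mirrored it, with 0.28 and 0.29 RPKM in 100000 and 10000 cells at 2 kb and 0.36 in both at 12 to 20 kb. In 1000 cells H3K27me3 was 0.38 RPKM at both distances.

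**Figure D5:**
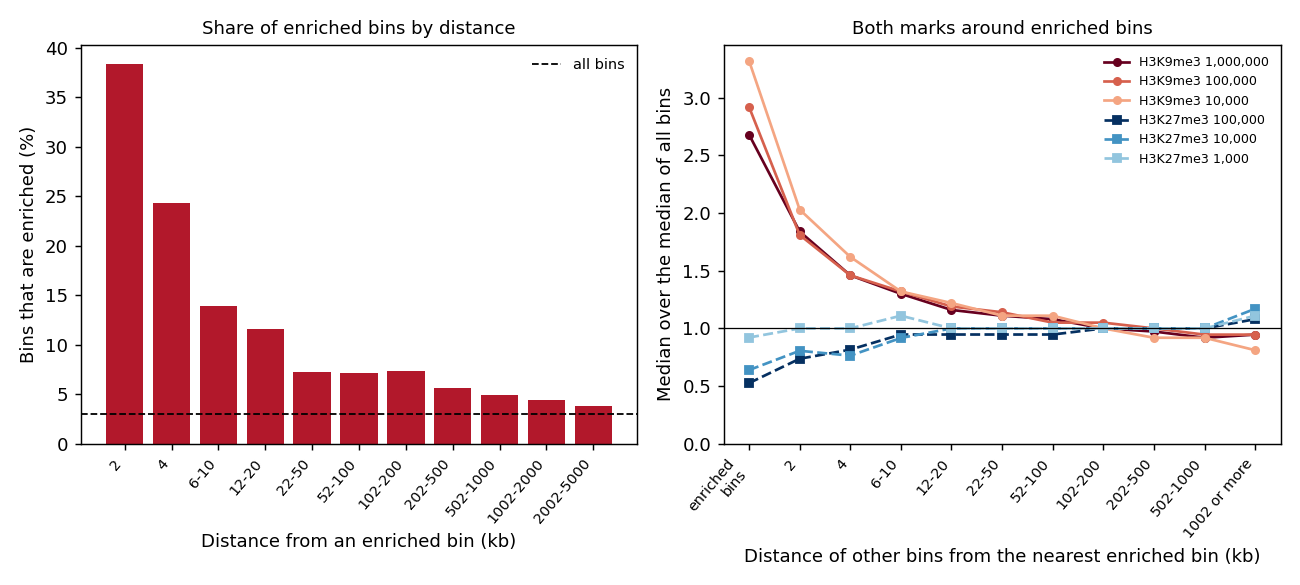
Left, percentage of bins that are enriched (vertical axis) by distance from an enriched bin (horizontal axis, kb), with all bins as the dashed line at 3.02%. Right, median H3K9me3 (circles) and H3K27me3 (squares) of each library relative to its median over all bins, in enriched bins and in other bins by distance from the nearest enriched bin (kb), where H3K9me3 falls from 2.68 to 3.32 times the median in enriched bins to 1.81 to 2.03 times at 2 kb and 1.16 to 1.22 times at 12 to 20 kb.

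In tiles of 1 Mb, 1366 of 2580 (52.9%) held an enriched bin, 728 held exactly 1, and 104 tiles with 5 or more held 668 enriched bins (24.2%). The fullest was chr7:69000001-70000000, with 13 of its 54 bins. It holds the imprinted genes Peg12, Magel2, Ndn and Mkrn3, which are expressed from the paternal copy. Only 1 of the 13 bins touched a transcript, that of A230057D06Rik, and no gene in the tile had RNA above 1.84 RPKM. The median of its enriched bins was 1.26, 1.18 and 1.42 RPKM of H3K9me3 at the higher cell numbers and 0.41, 0.36 and 0.54 of H3K27me3. Of the 13 bins, 10 were called higher in H3K9me3, 1 lower and 2 not called, against 92.8% higher and 0.145% lower over all enriched bins (background 10.1% each). Among these 13 bins the pair beside Peg12 had the most H3K27me3, and the other 11 had between 0.10 and 1.12 RPKM of it in any library.

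Next were chr3:3000001-4000000, at the centromeric end, with 12 of 33 bins and a single listed gene, the nuclear receptor gene Hnf4g (RNA 0), and chr12:18000001-19000000 with 12 of 40. In the first of these the median H3K9me3 was 1.22, 1.31 and 1.29 RPKM over H3K27me3 of 0.19, 0.16 and 0.33. On chromosome 7, the neighbouring tiles from 32000001, 33000001 and 34000001 held 9 of 37, 10 of 30 and 11 of 32 bins. The outer 2 of these tiles list androgen-binding protein genes, among them Abpa, Abpb and Abpe, and the middle tile lists no gene. Among the 10 fullest tiles the highest share was in chr12:22000001-23000000, with 10 of 20 bins, where H3K9me3 was 0.84, 1.06 and 1.12 RPKM and H3K27me3 0.08, 0.115 and 0.29. In chr9:11000001-12000000, with 11 of 40 bins, no gene is listed.

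In chrY:1000001-2000000, with the testis-determining gene Sry and the zinc finger gene Zfy2, 10 of 29 bins were enriched, and their panH3 medians were 0.19 and 0.125 RPKM. The tile chr17:21000001-22000000, with 9 of 33 bins, holds 19 genes, mostly zinc finger genes such as Zfp51 and Zfp160 and vomeronasal receptor genes such as Vmn1r231. There 9 of the 19 genes had RNA of 1 RPKM or more, and 0 of the 9 enriched bins touched a transcript.

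Linking enriched bins at gaps of up to 1 Mb gave 822 runs, of which 333 were single bins. The longest by number was chr12:17840001-23274000, with 47 enriched bins over 5.43 Mb, followed by chr17:17012001-23384000 with 39 over 6.37 Mb, chrX:17328001-26204000 with 34 over 8.88 Mb and chr7:31718001-34882000 with 31 over 3.16 Mb. The runs of chromosomes 12, 17 and 7 take in 6 of the 10 fullest tiles.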

How the data were processed

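Native ChIP sequencing libraries of TT2 cells were used as 3 series-wide tables of RPKM values, made by the authors and deposited as such, per the file headers: 2 kb bins, gene transcripts with RNA, and H3K4me3 windows. The panH3 headers name no unit and were taken as RPKM. Reads were processed with BWA and SAMtools on mm9, per the submitters' processing notes, with versions, filters and the treatment of multiply mapping reads not given in the sources used here. In the tables, 2 value columns that match no sample were not used. Members and gene lists were chosen with earlier results of these data known. The ratio rule was applied in whole hundredths of RPKM. Distances run to the nearest transcript span in the deposited gene table. Depth was recovered from the steps between RPKM values.

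The only test, of the 6 libraries that the choice of bins did not use, was limma (version 3.58.1) with a trend and robust variances on log2(RPKM + 0.1), with terms for mark and log10 cell number, over every bin with a read in any of those 6 libraries, Benjamini-Hochberg adjustment and a threshold of 0.05. It was tested on simulated data first. Values from the choice of bins got no test. Named bins were those with the largest ratios, the highest and lowest H3K9me3 and H3K27me3, the largest differences, those at the threshold and those at start sites, along with the fullest 1 Mb tiles, the genes with most enriched bins and the leading genes of each family. Alternatives changed the ratio, the panH3 floor, the scaling, the pseudocount, the filter and the libraries used.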

Additional observations from a re-analysis of the deposited data

How the results depend on the processing

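The number of enriched bins moved with the threshold, the scaling and the panH3 floor. A ratio of 2 gave 7716 enriched bins, a ratio of 4 gave 956, and the demand that each of a, b and c reach 3 times panH3 gave 1827. Scaling libraries to their medians gave 4065, any panH3 above 0 gave 3451 and a floor of 0.2 RPKM gave 2203. At a ratio of 2, another enriched bin lay within 1 Mb in 98.6%, the shares at 3 times panH3 were 20.4%, 27.9% and 39.3% in 1000000, 100000 and 10000 cells, median H3K27me3 of 100000 cells was 0.28 RPKM, and limma called 5442 bins higher and 54 lower. At a ratio of 4 the values were 63.1%, then 84.8%, 91.5% and 95%, then 0.15 RPKM, with 931 higher and 2 lower, and 12% touched a gene. The limma background was 10.1% higher and 10.1% lower at both ratios. A panH3 floor of 0.2 RPKM gave 85% within 1 Mb and 0.23 RPKM. The median scaling gave 93% within 1 Mb, 64.2% and 68.4% at 3 times panH3 in 1000000 and 100000 cells, and 0.242 RPKM. Within 10 kb of a gene lay 22.4%, and within 500 kb of another enriched bin 75.1%, against 52% of the other bins. A share with a neighbour within 1 Mb depends on how many bins are enriched. It was not taken for other bins at the alternative settings, so these shares do not show whether clustering changed. Against each library's own median the shares were 40.1%, 49.8% and 58.3%.

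Leaving out 1 of the 1000-cell libraries gave between 88.2% and 89.3% with another enriched bin within 1 Mb, and between 49.8% and 53.9%, 61.5% and 66.2%, and 75.8% and 79.3% at 3 times panH3 in 1000000, 100000 and 10000 cells. Leaving out 1 library of the limma test gave 2 to 5 bins lower in H3K9me3 (0.0723% to 0.181%, background 5.41% to 12.2%). Of 823 values for 55 named bins under 15 alternatives, 797 kept their call, 19 lost it, 7 gained it and 0 reversed. The cause of these shifts was not tested. No paired analysis was possible because, as far as replicate labels go, the lettered 1000-cell libraries enter no test and each group in the limma test is 1 library with no replicate number. A fit that instead matched the marks by cell number, at 100000 and 10000 cells, gave 2583 bins higher (93.5%, background 10.9%) and 6 lower (0.217%, background 11.1%). With 13.03 to 45.52 M reads, a median bin held between 9.1 and 35.4 reads, so values of single bins near the panH3 floor are imprecise.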
